A study of Mus musculus with 3 samples.

Results

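The 10 genes described here are the core pluripotency factors Pou5f1 (Oct4), Sox2 and Nanog, the Krüppel-like factors Klf4, Klf2 and Klf5, and the associated factors Esrrb, Lin28a, Lin28b and Sall4. They were chosen by name, 1 row each, from 55573 genes in the UMI-RNAseq table of NIH3T3 cells, an established line of mouse embryonic fibroblasts. The 3 libraries came from untreated cells grown in serum-containing medium and form 1 condition, so levels were compared between genes within a library and no groups of samples were compared. In UMI-RNAseq, molecules are tagged before amplification so that PCR copies can be removed. Levels are given as FPKM, the number of fragments scaled to 1 kilobase of gene and to a library of 1000000 counted fragments. Whether the libraries stem from separate cultures is not stated in the labels, and the spread between them, and any p over them, may thus be technical.

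Pluripotency is held by a small circuit of transcription factors in which Pou5f1 and Sox2 bind DNA side by side and, with Nanog, maintain each other's transcription. Klf2, Klf4 and Klf5 and the orphan nuclear receptor Esrrb join this circuit in embryonic stem cells, Sall4 is a zinc finger partner of Pou5f1, and Lin28a and Lin28b are RNA-binding proteins that block maturation of the let-7 microRNAs. Forced expression of Pou5f1, Sox2, Klf4 and Myc turns fibroblasts into pluripotent cells, which makes the level of each in an unmodified fibroblast line of interest. Klf4, Klf2 and Klf5 also act outside stem cells, in epithelia, endothelium and cells responding to serum, whereas Pou5f1 and Nanog are largely restricted to the early embryo and germ line.

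The bases upstream of the start are given for genes with RNA in these libraries and for genes with little or none. Klf4 and Klf2 were present, and Sox2, Nanog and Pou5f1 were at or near 0. Transcription itself was not measured. They were taken from RefSeq on GRCm38.p6, 5′ to 3′ on the strand of the gene, and stop before the first transcribed base of RefSeq and, where it lies in the window, of GENCODE M21. The Klf4 stretch is chr4:55532476-55532725 on the minus strand. The others are on the plus strand, at chr8:72318812-72319032 for Klf2, chr3:34649745-34649994 for Sox2, chr6:122707239-122707488 for Nanog and chr17:35505782-35506017 for Pou5f1. Capitals mark the GC box GGGCGG on either strand and, in Nanog, the composite Sox-Oct element, which joins a Sox site to an octamer site.
Klf4: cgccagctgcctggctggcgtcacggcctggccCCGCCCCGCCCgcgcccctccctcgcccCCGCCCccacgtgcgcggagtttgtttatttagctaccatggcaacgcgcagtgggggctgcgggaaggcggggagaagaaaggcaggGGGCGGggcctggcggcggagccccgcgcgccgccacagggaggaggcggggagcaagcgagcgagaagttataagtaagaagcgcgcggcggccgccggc
Klf2: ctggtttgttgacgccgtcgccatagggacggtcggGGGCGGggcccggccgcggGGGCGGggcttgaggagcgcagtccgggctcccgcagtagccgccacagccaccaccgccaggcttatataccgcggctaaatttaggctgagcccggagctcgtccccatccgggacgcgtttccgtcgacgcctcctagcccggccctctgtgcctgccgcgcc
Sox2: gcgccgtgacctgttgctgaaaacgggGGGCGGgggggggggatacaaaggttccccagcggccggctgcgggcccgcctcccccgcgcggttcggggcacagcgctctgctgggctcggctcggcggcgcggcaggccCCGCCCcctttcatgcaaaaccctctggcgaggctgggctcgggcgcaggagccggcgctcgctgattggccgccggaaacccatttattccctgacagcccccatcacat
Nanog: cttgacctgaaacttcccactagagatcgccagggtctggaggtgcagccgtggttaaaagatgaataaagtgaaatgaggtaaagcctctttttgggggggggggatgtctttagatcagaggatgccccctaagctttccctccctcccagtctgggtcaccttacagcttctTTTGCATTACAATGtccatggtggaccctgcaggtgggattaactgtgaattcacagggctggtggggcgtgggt
Pou5f1: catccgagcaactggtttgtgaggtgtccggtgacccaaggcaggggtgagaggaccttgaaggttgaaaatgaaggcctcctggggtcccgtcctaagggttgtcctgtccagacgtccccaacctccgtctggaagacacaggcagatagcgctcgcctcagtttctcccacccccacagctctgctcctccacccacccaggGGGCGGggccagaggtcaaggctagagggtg

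Of the 10 genes, 3 reached a mean of 1 FPKM, the limit used here for a detected transcript, and all 3 were Klf genes. Klf4 had the highest level, 230.1 ± 4.74 FPKM (SD, n = 3 libraries), followed by Klf2 with 42.5 ± 4.84 FPKM and Klf5 with 11.5 ± 0.679 FPKM. Lin28b lay below the limit at 0.559 ± 0.0178 FPKM, Nanog had 1 fragment in 1 library, and Pou5f1, Sox2, Esrrb, Lin28a and Sall4 were at 0 in all 3 libraries. Among all genes listed, 23.2% had a mean of at least 1 FPKM and 52.9% were at 0. Among the 21903 protein-coding genes of GENCODE M21, the kind to which all 10 belong, these shares were 49.3% and 28.1%. In RNA from a whole culture, fewer expressing cells and less RNA per cell cannot be told apart.

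**Figure D1:**
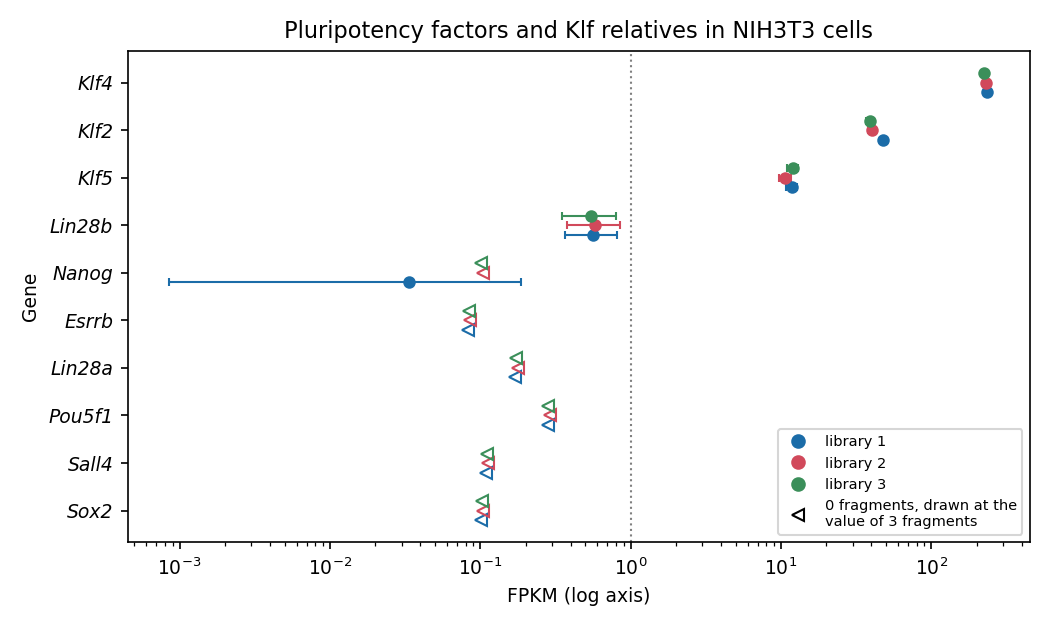
FPKM (log axis) of the 10 genes, with 1 point per library and bars for the exact Poisson 95% interval of the fragments, which covers counting error only. Klf4, Klf2 and Klf5 lie to the right of the dotted line at 1 FPKM in every library, Lin28b lies just left of it, and open triangles stand for libraries with 0 fragments, drawn at the value that 3 fragments would have.

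The libraries held between 13959723 and 14423209 counted fragments, recovered from the FPKM values and the mean isoform length of each gene. The recovered fragments of the 10 genes were whole numbers in every library. A value of 0 is whole at any length, so only values above 0, of Klf4, Klf2, Klf5, Lin28b and Nanog, test the recovery. The cells were checked against marker lists. Of 16 fibroblast markers, 15 had a mean of at least 1 FPKM, with a median of 197.1 FPKM, and Lum was at 0. Retina is named in the extraction text of the labels, but 0 of 12 retina markers reached 1 FPKM, their summed level was 1.07 to 1.86 FPKM per library, and Opn1mw and Nrl were at 0. Epithelial markers (0 of 4) and germ line markers (0 of 4) also stayed below 1 FPKM, with Epcam, Krt18, Dazl and Kit at 0.

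Klf4 (ENSMUSG00000003032) is encoded on chromosome 4 (minus strand, 55527143 to 55532466) of GRCm38. Its level was 234.4 FPKM in library 1, 231.0 in library 2 and 225.0 in library 3, from 4969, 4740 and 4732 fragments. The libraries lay close together, with a coefficient of variation of 2.06% against 1.44% from counting error alone. Klf4 ranked 422 among all genes and stood at 12.0% of Actb, which encodes β-actin. Among genes with a mean of at least 1 FPKM, 96.7% lay below it.

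Klf2 (ENSMUSG00000055148) lies on the plus strand of chromosome 8 from 72319033 to 72321656 and is known for its role in endothelium and in T cell quiescence. It had 48.0 FPKM in library 1, 40.2 in library 2 and 39.2 in library 3, from 1280, 1037 and 1036 fragments. Library 1 stood above the other two, which were close to each other. The coefficient of variation of 11.4% exceeded the 2.99% from counting error, and of 8203 genes with a mean of at least 10 FPKM, 3.12% varied more between libraries. The median coefficient of variation of these genes was 3.02%. Klf2 has 1 annotated isoform of 1847 nt and shared no 75-nt word with a transcript of another gene.

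Klf5 (ENSMUSG00000005148), on the plus strand of chromosome 14 from 99298691 to 99315036, is a regulator of epithelial growth. Its FPKM was 11.8, 10.7 and 12.0 in libraries 1, 2 and 3, from 528, 464 and 531 fragments. Library 2 was the lowest, and the coefficient of variation of 5.91% compares with 4.44% from counting error. Klf5 ranked 7802 among all genes.

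**Figure D2:**
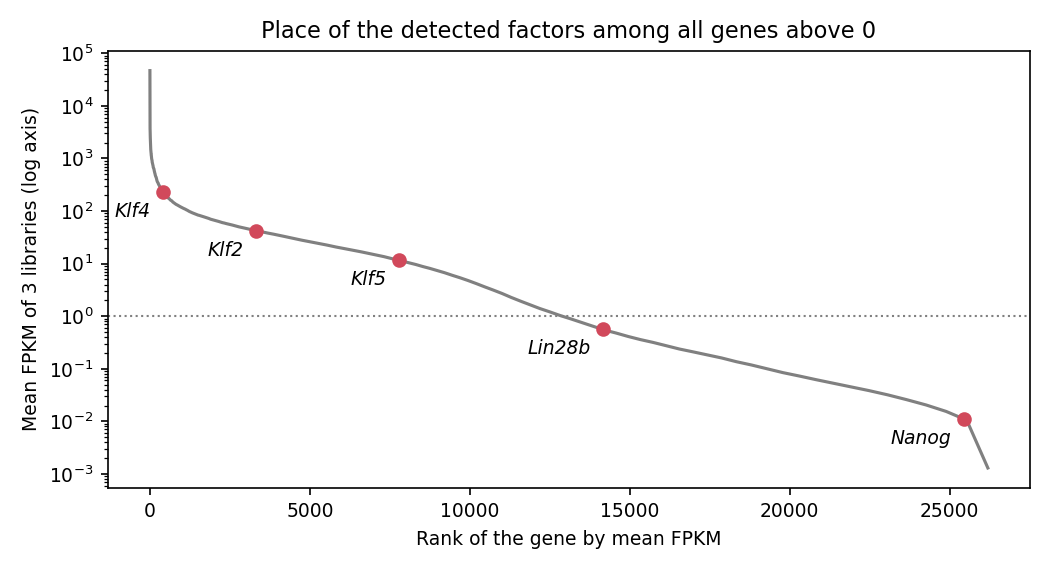
Mean FPKM of 3 libraries (log axis) against the rank of each gene, for all genes above 0 (grey line), with the 5 genes of the set that had a fragment marked. Klf4 lies at rank 422, Klf2 at 3323, Klf5 at 7802, Lin28b at 14166, below the dotted line at 1 FPKM, and Nanog at 25444.

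In each library FPKM fell in the order Klf4, Klf2, Klf5, Lin28b. Klf4 was 4.88-fold above Klf2 in library 1 and 5.74-fold above it in libraries 2 and 3, a mean log2 ratio of 2.44 ± 0.14 (SD, n = 3). The factor of library 1 was the smallest, as Klf2 was highest there. Klf2 exceeded Klf5 by factors of 4.07, 3.75 and 3.28, a log2 ratio of 1.88 ± 0.16. Klf5 exceeded Lin28b by factors of 21.1, 18.6 and 22.1, a log2 ratio of 4.36 ± 0.13. The steps all exceeded the variation among the libraries. The pairs are neighbours by mean FPKM in these same libraries, so the test given next is no independent test of the order. Flipping the signs of the log2 ratios in an exact permutation test (two-sided) returned p = 0.25 for each of the 3 ratios, also after Benjamini-Hochberg adjustment, which is the smallest p that 3 libraries allow. With the longest annotated isoform in place of the mean length, the order held but the log2 ratio of Klf4 to Klf2 fell to 1.40, because Klf4 has isoforms of 522 to 3029 nt.

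Lin28b (ENSMUSG00000063804) extends over chromosome 10, on the minus strand, from 45376620 to 45486395. There were 26, 26 and 25 fragments in libraries 1, 2 and 3, or 0.558, 0.577 and 0.541 FPKM. The exact Poisson 95% intervals of these values overlapped and ran from 0.350 to 0.845 FPKM over the libraries. Of its 3 annotated isoforms 1 is protein coding, with the others classed as processed transcripts, and the gene-level value does not tell them apart. Its paralog Lin28a (ENSMUSG00000050966), on chromosome 4 (minus strand, 134003330 to 134018841), had 0 fragments in each library. A floor of 3 fragments corresponds to 0.171 to 0.177 FPKM per library. The exact Poisson 95% interval of 0 fragments reaches somewhat higher, to 0.211 to 0.217 FPKM. Measured Lin28b was at least 3.14-fold above this floor of Lin28a in every library. With the longest isoform of both genes it was at least 5.41-fold above. These ratios leave out the counting error of the 25 or 26 Lin28b fragments. The lowest Lin28b limit, 0.350 FPKM, was still above the floor of Lin28a.

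Pou5f1 (ENSMUSG00000024406), the POU-domain factor at the head of the circuit, lies on the plus strand of chromosome 17 from 35506018 to 35510772 and had 0 fragments in all 3 libraries. The floor of 3 fragments corresponds to 0.281 to 0.290 FPKM per library, the highest limit of the set, as its isoforms average 740 nt. Sox2 (ENSMUSG00000074637), an HMG-box factor encoded by a single exon on the plus strand of chromosome 3 from 34650405 to 34652461, was also at 0, with a limit of 0.101 to 0.104 FPKM. Sall4 (ENSMUSG00000027547), on chromosome 2 (minus strand, 168748332 to 168767943), had a limit of 0.110 to 0.113 FPKM. Esrrb (ENSMUSG00000021255), on the plus strand of chromosome 12 from 86361117 to 86521628, had the lowest limit, 0.0830 to 0.0858 FPKM. These limits are for 1 library. Over the 3 libraries pooled, 3 fragments correspond to 0.0950 FPKM for Pou5f1 and 0.0280 FPKM for Esrrb. Levels lower still may have been missed at this depth. Against the floor of 3 fragments per library, measured Klf4 was at least 794.0-fold above Pou5f1, 2207-fold above Sox2 and 2689-fold above Esrrb. These bounds are for the library with the lowest bound, at the mean isoform length and without the counting error of Klf4. With the longest isoform of both genes these bounds were 709.3-fold, 1071-fold and 2239-fold, so that of Sox2, which has 1 isoform, moved most.

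Nanog (ENSMUSG00000012396), the homeobox factor of the circuit, lies on the plus strand of chromosome 6 from 122707489 to 122714633. It had 1 fragment in library 1 and 0 in libraries 2 and 3. The value of library 1, 0.0335 FPKM, has an exact Poisson 95% interval from 0.000847 to 0.186 FPKM, and that of library 2 runs from 0 to 0.128 FPKM. A difference between the libraries was not detectable. The pseudogenes Nanog-ps1 and Nanog-ps2 were listed at 0, and Nanog-ps1 held 1.59% of the 75-nt words of Nanog.

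Transcripts that overlap these genes were also examined, since the use of strand in counting is not given in the sources used here. Pou5f1 overlaps Gm19553 over 317 nt of exon, Lin28a overlaps Gm13061 over 234 nt and Sall4 overlaps Gm14261 over 526 nt, each on the opposite strand. All 3 overlapping transcripts were at 0, and so was Sox2ot, the long noncoding RNA that spans Sox2. These zeros do not show how the shared stretches were counted, as fragments there may be assigned to neither gene. Klf4, Klf2, Klf5, Esrrb and Lin28b overlap no other annotated gene.

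Myc and Glis1, which act with these factors in reprogramming, were both above 1 FPKM. Myc, a growth regulator, had 248.8, 250.6 and 239.3 FPKM in libraries 1, 2 and 3. Klf4 stood at 0.942, 0.922 and 0.940 times Myc in these libraries, slightly lower in each, and at 111.7 against 178.4 FPKM with the longest isoform of both. Of the reprogramming set Pou5f1, Sox2, Klf4 and Myc, Klf4 and Myc thus ranked 422 and 389 among all genes, with Pou5f1 and Sox2 at 0. Glis1 had 4.62 ± 0.374 FPKM, and Mycl had 2 fragments in library 1 and 0 in the others.

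All 17 genes named Klf followed by a number were then compared. Klf4 was the highest in every library and made up 28.7%, 28.6% and 28.1% of their summed FPKM. Klf6 followed with 130.3 ± 3.66 FPKM, then Klf9 with 102.0 ± 1.77, Klf10 with 94.0 ± 2.42, Klf3 with 73.1 ± 1.86 and Klf13 with 61.7 ± 2.11 FPKM. Klf6 and Klf10 are widely expressed early response genes and Klf9 responds to glucocorticoid and thyroid hormone. Klf2 came in place 7 and Klf5 in place 10. Klf5 and Klf16 could not be ordered, with 10.7 and 10.8 FPKM in library 2 and Klf5 above Klf16 in the others, a comparison picked after the values were seen. Klf8, Klf14 and Klf17 were at 0. With the longest isoform, Klf4 remained first at 111.7 FPKM, Klf9 and Klf6 followed at 63.7 and 63.1 FPKM, and Klf2 moved to place 5.

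**Figure D3:**
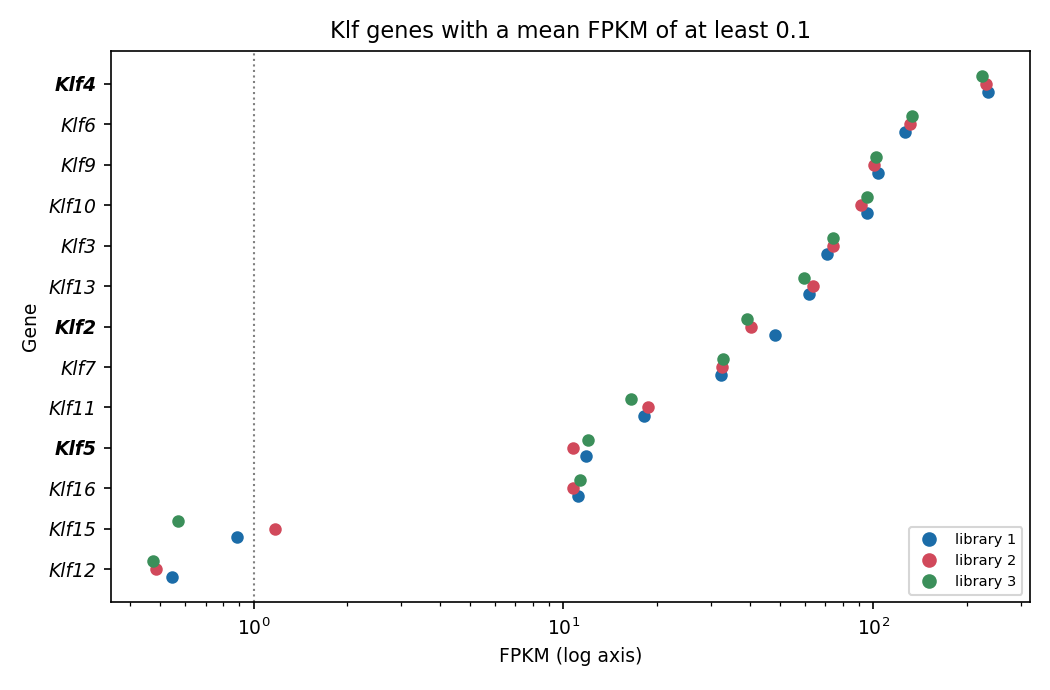
FPKM (log axis) of the Klf genes with a mean of at least 0.1 FPKM, with 1 point per library and Klf4, Klf2 and Klf5 in bold. Klf4 is the highest in each library, Klf2 lies apart in library 1 at 48.0 FPKM, and Klf5 overlaps Klf16.

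Of the 23 other Klf and Sp genes, 12 (52.2%) had a mean of at least 1 FPKM and 7 were at 0. This share was close to the 49.3% of protein-coding genes, of which 28.1% were at 0. The median was 2.75 FPKM against 0.830 for protein-coding genes. Sp1, a general activator that binds GC boxes as Klf proteins do, had 91.3 ± 2.55 FPKM. The paralogs of the other factors showed 8 of 18 genes (44.4%) at or above 1 FPKM and 6 at 0, with a median of 0.526 FPKM. Here Sox9, a factor of cartilage and progenitor cells, was the highest with 42.5 ± 1.02 FPKM, followed by Pou6f1 (21.7 ± 0.938), Sox4 (21.6 ± 0.671), Esrra (18.0 ± 1.48), Pou2f1 (14.3 ± 0.265) and Sox12 (10.2 ± 0.388). Sox1 and Sox3, the closest relatives of Sox2, were at 0, as were Sall1, Sall3, Pou3f1 and Pou3f2. Of the Esrr receptors, Esrra, a regulator of mitochondrial genes, was detected, Esrrg had 0.206 FPKM and Esrrb was at 0.

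Of 32 other genes listed for the pluripotency network, 7 (21.9%) reached 1 FPKM and 15 were at 0, with a median of 0.0136 FPKM. Among all genes listed, 23.2% reached 1 FPKM and 52.9% were at 0. Among protein-coding genes these shares were 49.3% and 28.1%. Of the 7 network genes above the limit, Il6st, Stat3 and Lifr belong to LIF signalling, a route that many cells use. Il6st, the gp130 chain shared by LIF and IL-6 receptors, had 205.6 ± 1.72 FPKM, Stat3, its effector, 105.1 ± 2.29, and Lifr, the LIF receptor, 8.63 ± 0.416. Tbx3, a T-box factor, had 14.5 ± 0.601 FPKM and Tcf7l1, a Wnt-responsive repressor, 14.2 ± 1.39. Tcf3 (E2A), an E-box factor, had 56.6 ± 0.940 FPKM. It is a different gene from Tcf7l1, which has also been called Tcf3, so its place in the network list is doubtful. The remaining gene was Dppa2, a chromatin factor of early embryos, with 5.24, 5.74 and 4.61 FPKM from 166, 176 and 145 fragments. Dppa4, its partner protein, had 0.155 FPKM from 2, 1 and 4 fragments. Zfp42 (Rex1), Dppa3, Dppa5a, Utf1, Fgf4 and Nr0b1, which are used as markers of stem cells, were at 0.

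In the list for the Lin28 and let-7 axis, which leaves out Lin28a and Lin28b, 12 of 13 genes (92.3%) reached 1 FPKM, with a median of 32.5 FPKM. Lin28a and Lin28b themselves stayed below the limit. Among all genes listed the share was 23.2%, and among protein-coding genes 49.3%. The architectural factors Hmga1 and Hmga2, of which Hmga2 is a classical let-7 target, were the highest at 1136 ± 48.1 and 488.9 ± 3.76 FPKM. Igf2bp2 (111.6 ± 3.49 FPKM) and Igf2bp1 (45.7 ± 1.62) encode RNA-binding proteins. Tut4, a terminal uridylyl transferase that acts with Lin28 on let-7 precursors, had 53.8 ± 1.68 FPKM and Drosha, which cuts primary microRNAs, 46.2 ± 2.28. Lin28b itself stood at 0.243% of Klf4. Mycn had 0.155 FPKM, below the limit. Let-7 microRNAs were not analysed here.

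**Figure D4:**
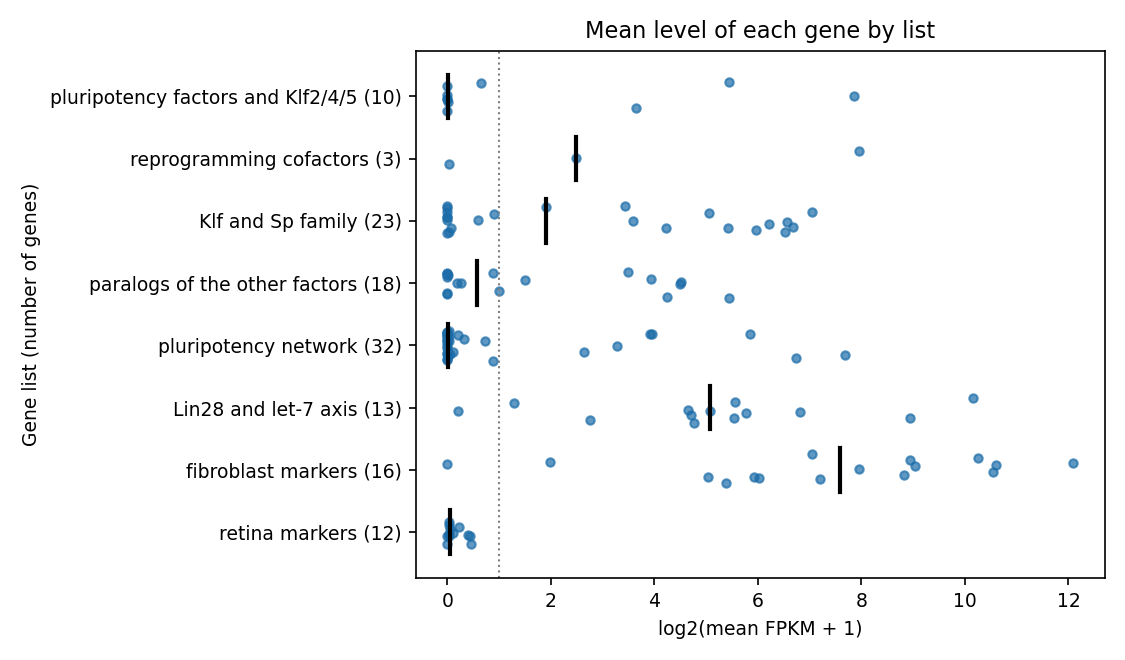
log2(mean FPKM + 1) of each gene by list, with a black bar at the median of the list, points spread vertically for visibility and a dotted line at 1 FPKM. The set of 10 factors has 3 genes right of the line, the pluripotency network 7 of 32, the fibroblast markers 15 of 16 and the retina markers 0 of 12. The Lin28 and let-7 axis, drawn without Lin28a and Lin28b, has 12 of 13.

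The promoter stretches printed above differ in base composition. RefSeq windows of 250 bases before to 50 after the start were found for 8 of the 10 genes, in 11 windows, and not for Klf5 and Sall4. Over the 250 bases before the start, observed over expected CpG was 0.941 in Klf4 and 0.915 in Klf2, higher than in 91.0% and 89.3% of all 32851 windows. Sox2 came next with 0.833, although it was at 0 in all libraries. Lin28b had 0.631. The windows of Nanog, Esrrb, Lin28a and Pou5f1 lay between 0.104 and 0.467. The median over all windows was 0.374, with 0.731 for genes with a mean of at least 1 FPKM and 0.252 for genes below it.

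The GC box GGGCGG occurred 4 times in these 250 bases of Klf4, where 2 of the matches overlap by 1 base, 2 times each in Klf2 and Sox2, and once in the upstream window of Pou5f1. It was present in 32.7% of all windows, in 58.4% of those of genes with a mean of at least 1 FPKM and in 22.1% of those of genes below. The Sox-Oct element, searched as a 14-letter composite on both strands with 1 variable base between its parts, was found in 2 of 32851 windows, and both belong to Nanog and hold the same site. All other letters had to match exactly, so sites with a differing letter were not counted. Elements outside the windows could not be found either. The search thus does not show that the element is limited to Nanog or absent from Pou5f1 and Sox2. A match describes the letters in these windows, and binding was not measured.

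**Figure D5:**
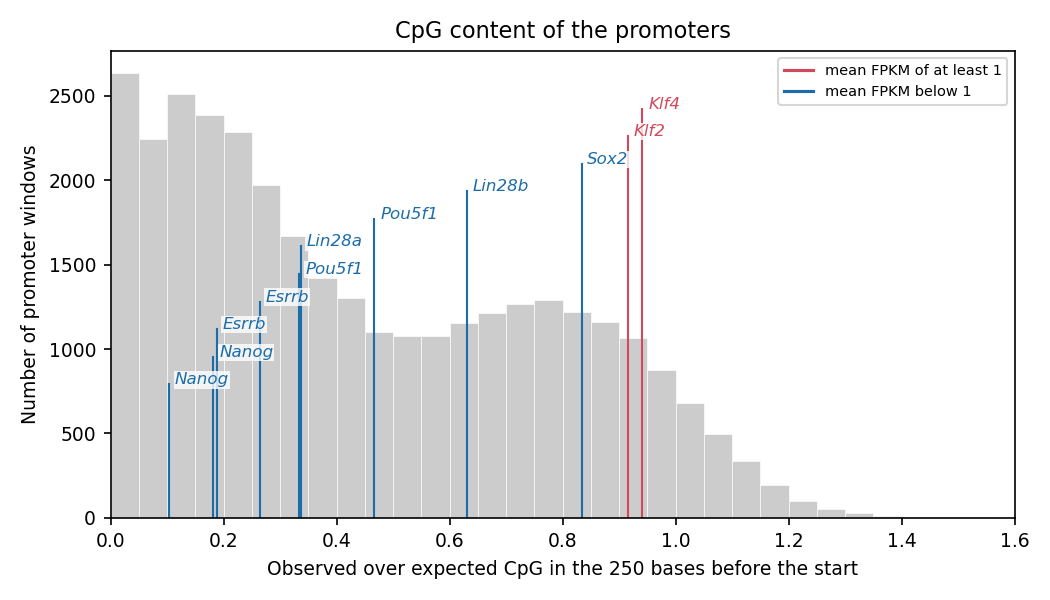
Number of RefSeq promoter windows (grey bars) by observed over expected CpG in the 250 bases before the start, with lines of arbitrary height at the 11 windows of 8 of the genes. Klf4 and Klf2 (red, mean of at least 1 FPKM) lie at 0.941 and 0.915, Sox2 at 0.833 is the nearest of the windows of genes below 1 FPKM (blue), and Nanog lies lowest at 0.104.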

How the data were processed

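NIH3T3 cells were profiled in 3 UMI-RNAseq libraries. According to the methods and the submitters' processing notes, the authors identified UMIs with UMI-tools 1.0.0, mapped reads with Hisat2 (2.0.4), removed reads with the same location and UMI, counted reads per gene with HTSeq 0.6.1 and deposited FPKM values. The build and annotation used for counting are not given in the sources used here. Both tables hold equal values, and 0 columns were left unused.

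The genes, lists and limits were chosen with earlier results of these data known. Named genes are the set itself, its pseudogenes and overlapping transcripts, up to 6 of the highest genes above 1 FPKM per list, and the 3 genes nearest to Klf4 in level. Klf16, Dppa2, genes at 0 and low-count genes were named after their values were seen. In Python 3.11.15 (numpy 2.4.6, pandas 2.3.3), fragments were recovered from FPKM, the rounded mean isoform length in GENCODE M21 (GRCm38; 55394 gene IDs found) and library totals set from genes with 1 isoform. They were within 0.01 fragments of a whole number (relatively wider for high counts) in every library for 96.4% of 26158 genes above 0. The recovery was tested on simulated data built from the same lengths and formula. This tests the computation, and not whether the authors used these lengths. Intervals (scipy 1.17.1) and the floor of 3 fragments cover counting error only. No count model was applied to FPKM. Ratios were tested with an exact sign-flip permutation test. Shared 75-nt words were searched on both strands of annotated transcripts. Figures were drawn with matplotlib 3.10.9. Alternatives were scaling, pseudocounts, limits, isoform length and leaving out each replicate.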

Additional observations from a re-analysis of the deposited data

How the results depend on the processing

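The values were recomputed under 142 alternatives, of which 125 kept the direction of a ratio, stayed within 1 SD of the libraries or, where genes were counted, within 1.5 times. Part of these 125 could not come out otherwise, as scaling leaves a gene at 0 unchanged and pseudogenes at 0 add nothing. The direction reversed in 1, the log2 ratio of Klf4 to Txn1, which was 0.17 and became -0.88 with the longest isoform of both genes. With a mean FPKM above 0 as the limit, 5 genes of the set in place of 3 and 17 genes of the pluripotency network in place of 7 were counted, and 11 of the network at a limit of 0.1. Rescaling to TPM shifts a whole library by 0.54 on the log2 scale on average and gave 333.4 for Klf4, 61.5 for Klf2, 16.7 for Klf5 and 0.810 for Lin28b. The longest annotated isoform gave 111.7 FPKM for Klf4, 10.6 for Klf5 and 0.334 for Lin28b, and moved the fold bounds of Klf4 over the 5 genes at 0 to between 709.3 and 2642 and that of Lin28b over Lin28a to 5.41. Leaving out 1 of 3 libraries cannot move a mean by more than their SD, so these alternatives do not test the means. The values without each replicate and with the longest isoform for the Klf and Sp family, the pluripotency network, these bounds and the ratios of Klf4 to Txn1 and Myc were added after seeing the data. Genes with 0 fragments can be judged only down to about the floors given above, which depth sets. No paired analysis was possible because all libraries share 1 condition.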

Other observations

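Among low members of the pluripotency network, Fbxo15, an early reporter gene of reprogramming work, had 5 fragments in library 1 and 0 in the others. Trim71, a let-7 target, had 5, 5 and 4 fragments, and Tfcp2l1, a factor of the naive state, had 25, 13 and 15. Sox15, a relative of Sox2, had 0, 2 and 3 fragments. Prdm14, Lefty1, Lefty2 and Nr5a2 had at most 2 fragments in a library.

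The 3 named genes with a level most like that of Klf4, by the mean absolute difference in log2(FPKM + 1) over 3 libraries, were Gng12 (0.00763), Elob (0.0117) and Cyb5r3 (0.0152), with means of 231.0, 228.5 and 231.5 FPKM. Klf4 stood at 1.16, 1.13 and 1.08 times Txn1, a transcript that the study assayed by AmpFISH, in libraries 1, 2 and 3, but with the longest isoform of both genes Klf4 lay below Txn1, at 111.7 against 205.0 FPKM, as the longest isoform of Txn1 equals its mean length of 1051 nt.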
